A study of Homo sapiens with 18 samples.

Results

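Death receptors are cell-surface proteins through which a cell can be told to die. Their transcripts, and those of the proteins that carry the signal inward, were followed in U251 cells, an established human glioblastoma line, kept with enzastaurin or with its DMSO vehicle. The members are 10 genes: the receptors FAS, TNFRSF10A, TNFRSF10B, TNFRSF10D, TNFRSF1A, TNFRSF12A and TNFRSF21, the adaptor FADD, the initiator protease CASP8 and the inhibitor CFLAR. They were taken as listed genes, through every probe set that the platform annotation assigns to 1 of them and to no other gene, which gave 36 of 41091 such probe sets and 10 of 19775 genes. The brightest probe set of a gene over all 18 arrays stands for it, and the others are given beside it.

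Each time point had 3 arrays of enzastaurin-treated cells and 3 of DMSO-treated cells, at 4, 10 and 18 h, hybridised to Affymetrix HG-U133 Plus 2.0 arrays. The cells grew in RPMI medium with 5% serum, the labels give no enzastaurin concentration, and the series as a whole concerns inhibition of the kinase GSK3 and death of glioma cells. Enzastaurin is a kinase inhibitor first developed against protein kinase C beta. Nothing in the labels says whether the 3 arrays of a group came from separate cultures, so p-values measure the spread between these arrays, which may be technical.

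As background, FAS and the receptors encoded by TNFRSF10A and TNFRSF10B gather FADD at the short death domain of their tail when they bind their ligands. This route is not described here for the other receptors. FADD in turn gathers procaspase-8, the protein of CASP8, and neighbouring caspase-8 molecules activate one another and then cut the executioner caspases. The c-FLIP proteins made from CFLAR resemble caspase-8, enter the same complex and hold it back, and the balance between receptors, adaptor, caspase and c-FLIP sets how readily a cell responds. Glioma cells are known to carry FAS and the TRAIL receptor encoded by TNFRSF10B and often resist their ligands in culture.

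The arrays hold 54613 probe sets with intensities on a linear scale, and the 2% trimmed mean lay between 498.2 and 498.5 on every array. Array medians lay between 99.2 and 125.9, and arrays of 1 group correlated at 0.951 to 0.969 over log2 values. A gene was tested where its brightest probe set averaged at least 109.0, the median of all probe sets, which left 12392 genes and 9 of the 10 members. Of the 36 probe sets, 25 reached that level and 11 did not. Of 9 astroglial and glioblastoma markers, 6 reached it, with VIM between 24370 and 38580, whereas GFAP, between 5.0 and 101.2, S100B and AQP4 did not. None of 3 epithelial markers reached it, nor did the leukocyte marker PTPRC, while CD3E (mean 129.2), PECAM1 (323.9) and MAP2 (719.2) did. Of the 9 tested markers, 3 were called between enzastaurin and DMSO (limma): NES at -0.67 on the log2 scale at 18 h (adjusted p = 3.21e-06), SOX2 at -0.54 at 4 h (adjusted p = 4.58e-04) and 0.45 at 18 h (adjusted p = 3.01e-04), and MAP2 at -0.41 at 18 h (adjusted p = 0.0434). Their part in the members' changes was not tested. Level on these arrays is a probe set's own brightness, so the intensities of different genes are not compared.

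FAS and TNFRSF21 are the members called between enzastaurin and DMSO at more than 1 time, and the DNA around their starts is given here so that the text can refer to it. The sequences are those of RefSeq (GRCh38.p14), 250 bases before and 50 bases after a transcript start, in transcript direction. For FAS the table lists 3 such windows, of which the first is shown; it lies inside the span RefSeq gives for the gene, downstream of that span's start, so it belongs to one of several starts. TNFRSF21 has 1 window, at the start of its span. The windows are chr10:88990548-88990847 on the plus strand for FAS and chr6:47309856-47310155 on the minus strand for TNFRSF21. Capitals mark matches to motifs searched on both strands.
FAS: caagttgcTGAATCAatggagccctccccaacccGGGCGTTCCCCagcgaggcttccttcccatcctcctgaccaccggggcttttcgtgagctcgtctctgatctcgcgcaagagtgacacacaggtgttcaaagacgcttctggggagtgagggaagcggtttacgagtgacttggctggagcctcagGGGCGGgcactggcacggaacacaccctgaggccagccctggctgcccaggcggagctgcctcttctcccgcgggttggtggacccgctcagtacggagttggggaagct
TNFRSF21: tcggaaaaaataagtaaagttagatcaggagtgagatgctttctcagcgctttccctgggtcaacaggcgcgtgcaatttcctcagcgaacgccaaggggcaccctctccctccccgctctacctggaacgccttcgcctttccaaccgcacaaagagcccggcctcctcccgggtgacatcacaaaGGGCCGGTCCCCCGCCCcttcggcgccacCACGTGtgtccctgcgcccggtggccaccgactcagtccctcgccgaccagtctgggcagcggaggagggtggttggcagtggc

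In the FAS window the first capitals, at -242 from the start, match the AP-1 motif TGANTCA, which 7.71% of 35116 promoter windows hold. The second run of capitals, from -216, holds 2 overlapping matches to a loose NF-kB motif, GGG and CC with any 5 bases between, found in 58.7% of windows. The third, at -60, is the SP1 motif GGGCGG, found in 45% of windows. The TNFRSF21 window has 2 overlapping NF-kB matches from -63, an SP1 match at -52 directly beside them, and at -34 the E-box CACGTG, the motif read by MYC and its partners, which 7.26% of windows hold. Neither window holds the TCF/LEF motif CTTTGAT (2.62% of windows) or the ATF4-C/EBP motif TGATGNAA (3.62%). These are letter matches only, and binding was not measured here.

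Enzastaurin raised FAS most of all members, by 4.55-fold at 18 h, and raised TNFRSF21, which encodes death receptor 6, by 1.58-fold at that time. TNFRSF10B rose slightly and TNFRSF12A fell slightly at 18 h, while FADD was lower at 10 h. CASP8, CFLAR, TNFRSF1A and TNFRSF10A did not pass the test at any single time. By limma with Benjamini-Hochberg adjustment over 12392 genes, 0 of 9 tested members were called at 4 h, where 1.78% of all genes were called, and 0 of the 9 had an unadjusted p under 0.05, beside 12.6% of all genes. At 10 h 3 of 9 were called, against 8.41% of all genes, with 2 higher and 1 lower under enzastaurin (3.78% and 4.63% of all genes). At 18 h 4 of 9 were called, against 15.8% of all genes, with 3 higher and 1 lower (8.03% and 7.82% of all genes). The median log2 change of the tested members was 0.03 at 4 h, 0.00 at 10 h and 0.17 at 18 h, beside 0.00, -0.02 and 0.00 over all genes. All enzastaurin arrays lay above all DMSO arrays for 1, 2 and 4 of 9 tested members at 4, 10 and 18 h. The share of all genes was 9.17%, 11.8% and 15.4%. They all lay below for 2, 1 and 2 of 9, beside 9.11%, 15% and 14.3% of all genes. In RNA from whole cultures, a change in the share of cells that carry a transcript and a change in the amount per cell cannot be told apart.

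**Figure D1:**
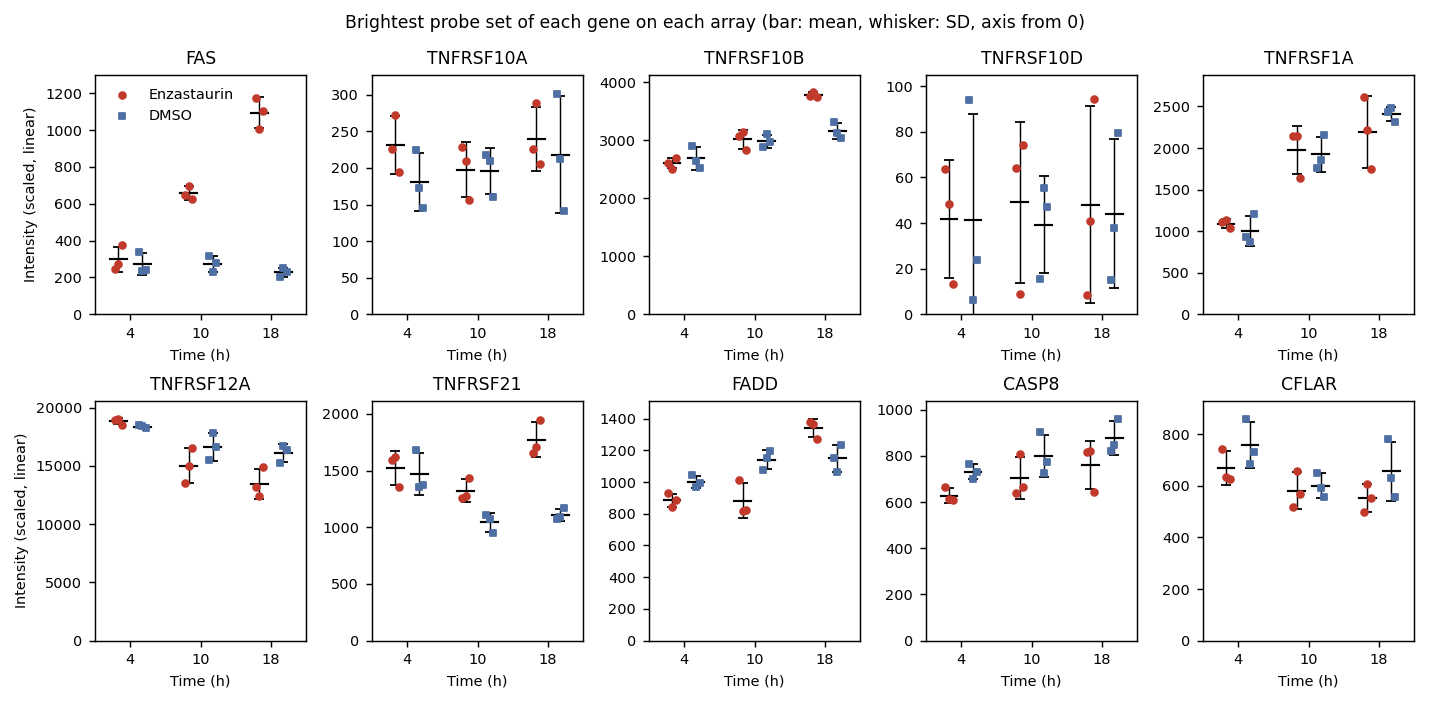
Intensity of the brightest probe set of each of the 10 genes (vertical axes, scaled linear intensity from 0, each panel with its own range) on every array at 4, 10 and 18 h, with enzastaurin as circles to the left of DMSO as squares. Bars are means and whiskers SD (n = 3), cut off at the axis for TNFRSF10D. The enzastaurin and DMSO points of FAS, TNFRSF21 and FADD separate at 10 and 18 h, those of FADD in opposite directions. Points also separate at 4 h for FADD, CASP8 and TNFRSF12A, and at 18 h for TNFRSF10B, TNFRSF12A and CASP8.

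FAS, the receptor for Fas ligand, had an intensity of 247.9, 273.4 and 375.7 in enzastaurin-treated cells at 4 h, against 339.5, 233.7 and 241.5 in DMSO-treated cells, on probe set 204780_s_at. At 10 h the values were 648.6, 697.6 and 623.5 with enzastaurin and 314.3, 228.1 and 277.8 with DMSO. By 18 h they were 1175.4, 1005.9 and 1101.0 with enzastaurin, against 203.7, 250.8 and 230.7 with DMSO. The groups overlapped at 4 h, and at both later times every enzastaurin array was above every DMSO array. The log2 change was 0.13 ± 0.17 (SE) at 4 h (limma, adjusted p = 0.820), 1.23 ± 0.17 at 10 h (adjusted p = 6.64e-05) and 2.19 ± 0.17 at 18 h (adjusted p = 9.63e-09, 95% interval 1.84 to 2.53). Only 7 of the 12392 tested genes had a larger log2 rise than FAS at 18 h, and 27 had one at 10 h.

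The effect of enzastaurin on FAS grew with time. The log2 change at 18 h exceeded that at 4 h by 2.06 (limma, adjusted p = 1.01e-05), a contrast in which 7.71% of all genes and 2 of 9 tested members, FAS and TNFRSF21, were called. Between 4 and 10 h it grew by 1.10 (adjusted p = 0.0234, with 1.41% of genes and 1 of 9 members called), and between 10 and 18 h by 0.96 (adjusted p = 0.0352, with 2.21% of genes and 2 of 9 members called, FAS and FADD). The first of these steps lost its call without any 1 of 6 arrays (enzastaurin 4 h replicates 1 and 2, enzastaurin 10 h replicates 1 and 2, DMSO 4 h replicate 1 or DMSO 10 h replicate 2), with adjusted p up to 0.0800. The step to 18 h lost its call for FAS without any 1 of 9 arrays: enzastaurin 10 h replicates 1 to 3, enzastaurin 18 h replicates 1 and 3, DMSO 10 h replicates 1 and 3 and DMSO 18 h replicates 1 and 3 (adjusted p up to 0.0979). FAS kept its calls at 10 h and 18 h in every setting and with any 1 array left out. Within the enzastaurin arrays FAS was 1.84 higher on the log2 scale at 18 h than at 4 h (adjusted p = 4.99e-08), and within the DMSO arrays the value was -0.22 (adjusted p = 0.412). With the probe sets of FAS averaged, the DMSO value was -0.51 and passed the test (adjusted p = 0.0151).

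Of the 5 FAS probe sets, 4 reached the level for testing, and all 4 were higher under enzastaurin at 10 h and at 18 h and none was called at 4 h. In this fit over all 27307 probe sets at that level, 1.08% were called at 4 h, 5.49% at 10 h and 11.3% at 18 h. Probe set 204781_s_at had 438.6, 379.6 and 465.8 with enzastaurin at 18 h and 216.2, 105.4 and 137.8 with DMSO, a log2 change of 1.44. On 215719_x_at the 18 h values were 501.4, 519.5 and 516.1 with enzastaurin and 112.3, 80.1 and 113.7 with DMSO, a log2 change of 2.18. The fourth, 216252_x_at, had 412.4, 446.0 and 441.1 with enzastaurin and 94.9, 155.7 and 116.7 with DMSO, a log2 change of 1.72. No enzastaurin array overlapped a DMSO array on any of them at 18 h. The 2 probe sets whose names end in _x_at may also bind other sequences. The fifth, 233820_at, was below the level for testing, with 120.4, 110.0 and 111.9 under enzastaurin at 18 h and 20.4, 82.1 and 5.1 under DMSO. Over the 18 arrays the other 3 tested probe sets correlated with 204780_s_at at 0.87, 0.93 and 0.92 (Pearson, log2), and 233820_at at 0.40.

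**Figure D2:**
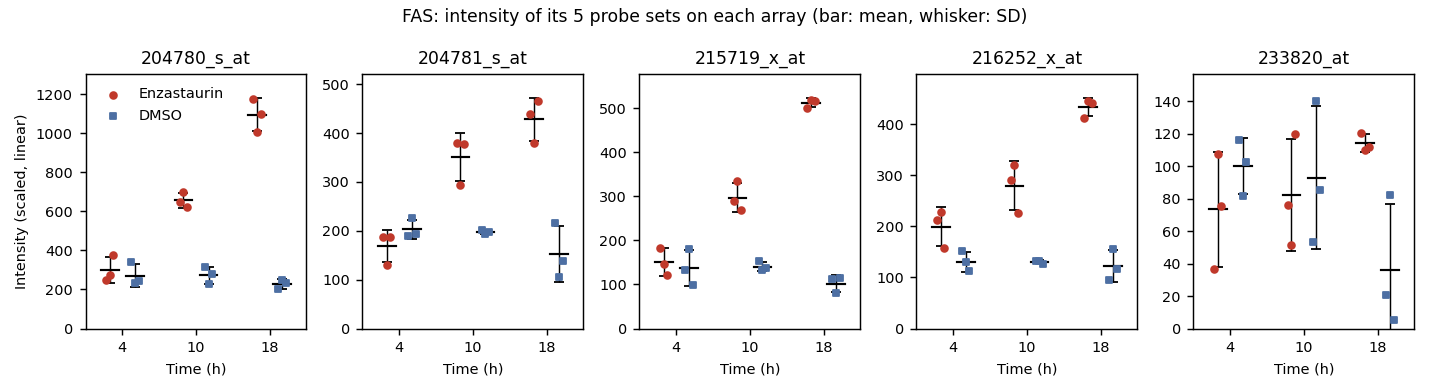
Scaled linear intensity of the 5 FAS probe sets (vertical axes, each from 0 with its own range) on every array at 4, 10 and 18 h, with enzastaurin as circles to the left of DMSO as squares, means as bars and SD as whiskers (n = 3, cut off at the axis for 233820_at). The first 4 panels separate at 10 and 18 h, and at 4 h narrow gaps part the groups on 216252_x_at (enzastaurin higher) and 204781_s_at (enzastaurin lower). The fifth, which lies below the level for testing, separates at 18 h only.

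Genes whose brightest probe set followed FAS most closely over the 18 arrays were SCML1 (r = 0.97), SP5 (r = 0.96) and H2BC12 (r = 0.95), as a description over arrays that share their groups. SP5, a zinc-finger transcription factor gene known as a target of Wnt signalling, averaged 53.0, 217.4 and 327.0 with enzastaurin at 4, 10 and 18 h and 15.9, 32.7 and 24.7 with DMSO. It reached the level for testing through its enzastaurin arrays, and near that low DMSO level its log2 change depends on the offset, running from 2.14 to 3.68 at 18 h and from 0.55 to 1.75 at 4 h for SP5. For the histone gene H2BC12 log2 changes were 0.08, 1.0 and 1.96, and for SCML1, a Polycomb-related gene, 0.08, 0.71 and 1.32. The SP5 change at 4 h was not called (limma, adjusted p = 0.130), but was without the variance trend (0.00886) or in the fit with probe sets averaged (0.0130). SP5 has no other probe set, so averaging left its log2 change at 1.12 and altered only the fit around it.

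TNFRSF21 carries a death domain and is best known from neurons and from lymphocytes. On probe set 218856_at its intensity was 1596.9, 1617.6 and 1352.4 with enzastaurin at 4 h, against 1680.9, 1350.7 and 1371.4 with DMSO. At 10 h it was 1259.5, 1271.5 and 1436.4 with enzastaurin and 1106.0, 1073.5 and 950.2 with DMSO. The 18 h values were 1654.8, 1709.6 and 1945.8 with enzastaurin, against 1070.3, 1093.8 and 1171.4 with DMSO. At 4 h the groups overlapped, and at 10 and 18 h all enzastaurin arrays lay above all DMSO arrays. The log2 change was 0.05 ± 0.10 (SE) at 4 h (limma, adjusted p = 0.886), 0.34 ± 0.10 at 10 h (adjusted p = 0.0389) and 0.66 ± 0.10 at 18 h (adjusted p = 7.21e-05). The effect grew by 0.61 between 4 and 18 h (adjusted p = 0.00976), a call lost with array medians subtracted (0.49, TNFRSF21 adjusted p = 0.0523) or probe sets averaged (0.36, adjusted p = 0.112). Within DMSO, where 3 of 9 members and 20.3% of all genes were called between 4 and 18 h, TNFRSF21 fell by 0.39 on the log2 scale (adjusted p = 0.00796), and within enzastaurin its 18 h level was 0.22 above that at 4 h (adjusted p = 0.112). The DMSO fall lost its call without DMSO 4 h replicate 1 (adjusted p = 0.0609).

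The 18 h rise of TNFRSF21 kept its call in every setting, and the 10 h rise did not. At 10 h the call was lost without any 1 of the 3 enzastaurin 10 h arrays or DMSO 10 h replicates 2 or 3 (TNFRSF21 adjusted p up to 0.171). The other TNFRSF21 probe set, 214581_x_at, had 957.5, 739.7 and 991.7 with enzastaurin at 18 h and 577.7, 695.8 and 747.9 with DMSO. Those groups overlapped at 1 array, and the log2 change of 0.40 was not called (limma, adjusted p = 0.102). In the fit over all probe sets 218856_at itself was called at 18 h (adjusted p = 1.28e-04) but not at 10 h (adjusted p = 0.0558), and the probe sets correlated at 0.48 over the arrays. The genes nearest to TNFRSF21 over the arrays were RCL1 (r = 0.91), HOXB3 (r = 0.89) and PVR (r = 0.88), with log2 changes at 18 h of 0.44, 0.87 and 0.40. For RCL1 and PVR those values fell short of the test when probe sets were averaged (0.07 and 0.28).

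TNFRSF10B and TNFRSF10A encode the receptors of the death ligand TRAIL that carry a complete death domain. TNFRSF10B probe set 209295_at read 2612.8, 2511.2 and 2688.6 with enzastaurin at 4 h and 2908.2, 2638.0 and 2519.8 with DMSO. At 10 h it read 3073.5, 3151.3 and 2838.1 with enzastaurin and 2881.0, 3104.3 and 2976.1 with DMSO. At 18 h the readings were 3759.0, 3834.6 and 3753.9 with enzastaurin, against 3323.9, 3126.3 and 3049.5 with DMSO. The groups overlapped at the first 2 times and were apart at 18 h, where the log2 change was 0.26 ± 0.07 (SE, limma, adjusted p = 0.00943). With array medians subtracted it was 0.25 and not called (TNFRSF10B adjusted p = 0.124). The transcript also rose with time in both arms, by 0.54 within enzastaurin between 4 and 18 h (adjusted p = 2.64e-06) and by 0.24 within DMSO (adjusted p = 0.0134). The DMSO rise lost its call without DMSO 4 h replicate 3 or DMSO 18 h replicate 1 (TNFRSF10B adjusted p = 0.0767 and 0.0693). The growth of the enzastaurin effect between 4 and 18 h was 0.30 and did not pass (adjusted p = 0.0524).

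The remaining tested TNFRSF10B probe sets were also above 0 at 18 h. Their log2 changes were 0.21 for 209294_x_at and 0.13 for 210405_x_at, neither called. Probe set 1556645_s_at was below the level for testing, with a log2 value of -1.13 at 18 h. Averaging all 4 probe sets, that one included, turned the 18 h change to -0.13 (TNFRSF10B, limma, adjusted p = 0.687). At 4 h 210405_x_at had 370.8, 456.1 and 395.0 with enzastaurin, against 713.2, 535.6 and 676.3 with DMSO. All enzastaurin arrays were lower there, and the log2 change of -0.63 was the only call at 4 h among the 25 tested probe sets (adjusted p = 0.0151).

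TNFRSF10A probe set 231775_at read 226.4, 272.7 and 195.0 with enzastaurin at 4 h, against 224.4, 172.5 and 145.3 with DMSO. At 10 h the readings were 228.1, 208.9 and 155.7 with enzastaurin and 218.3, 209.9 and 160.6 with DMSO. At 18 h it read 225.7, 288.3 and 205.1 with enzastaurin, against 301.1, 212.2 and 141.6 with DMSO. The groups overlapped at each time, the log2 changes were 0.34, 0.00 and 0.17 at 4, 10 and 18 h, and the 95% interval at 18 h was -0.35 to 0.69. Neither of the other 2 TNFRSF10A probe sets was called at any time. TNFRSF10D, the TRAIL receptor with a shortened death domain that does not pass the signal on, was near the floor of the arrays. Its probe sets lay between 6.2 and 94.2 and between 6.1 and 91.5 over all 18 arrays, and the gene was not tested.

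TNFRSF1A, the main receptor for tumour necrosis factor, changed with time in culture and not detectably with the drug. Its only probe set, 207643_s_at, read 1114.3, 1128.7 and 1032.3 with enzastaurin at 4 h and 935.0, 871.5 and 1205.0 with DMSO. At 10 h it read 2146.1, 2139.2 and 1644.8 with enzastaurin and 1758.7, 1853.2 and 2158.9 with DMSO. At 18 h it read 2618.2, 2217.0 and 1742.2 with enzastaurin and 2430.9, 2484.5 and 2310.3 with DMSO. The arms overlapped at every time, and every 10 h and 18 h array was above every 4 h array. Between 4 and 18 h TNFRSF1A rose by 0.98 on the log2 scale within enzastaurin (limma, adjusted p = 1.22e-05) and by 1.26 within DMSO (adjusted p = 1.26e-06). In the enzastaurin arm 5 of 9 members were called over that interval, against 30.1% of all genes. The change between enzastaurin and DMSO was 0.13, 0.03 and -0.15 at 4, 10 and 18 h, with a 95% interval of -0.44 to 0.13 at 18 h.

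TNFRSF12A encodes Fn14, the receptor for the cytokine TWEAK, which has no death domain. Probe set 218368_s_at read 18919.8, 19035.9 and 18551.5 with enzastaurin at 4 h, against 18488.4, 18450.3 and 18228.6 with DMSO. At 10 h the readings were 13509.4, 15031.6 and 16578.0 with enzastaurin and 15479.8, 17861.9 and 16635.4 with DMSO. The 18 h readings were 13152.3, 12400.9 and 14901.2 with enzastaurin and 15217.1, 16688.8 and 16392.9 with DMSO. At 4 h all enzastaurin arrays were slightly above, at 10 h the arms overlapped, and at 18 h all enzastaurin arrays were below. The log2 change was -0.26 ± 0.08 (SE) at 18 h (limma, adjusted p = 0.0286), and 0.03 and -0.15 at 4 and 10 h, not called. The call at 18 h was lost without enzastaurin 18 h replicate 1 or 2 or without DMSO 18 h replicate 2 or 3 (TNFRSF12A adjusted p up to 0.132). Within the enzastaurin arm TNFRSF12A fell by 0.49 on the log2 scale between 4 and 18 h (adjusted p = 7.60e-05), beside -0.19 within DMSO (adjusted p = 0.0947).

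FADD, the adaptor that links receptor and caspase, passed the test at 10 h only. Probe set 202535_at read 928.6, 844.5 and 883.8 with enzastaurin at 4 h, against 1042.7, 965.7 and 996.5 with DMSO. At 10 h it read 1011.0, 814.7 and 825.1 with enzastaurin, against 1078.7, 1150.5 and 1196.2 with DMSO. At 18 h it read 1376.3, 1366.6 and 1272.6 with enzastaurin, against 1152.3, 1061.8 and 1235.3 with DMSO. Enzastaurin arrays were all lower at 4 and 10 h, as for 9.11% and 15% of all genes. They were all higher at 18 h, as for 15.4% of all genes. The log2 changes were -0.17 ± 0.09 (SE) at 4 h (limma, adjusted p = 0.440), -0.37 ± 0.09 at 10 h (adjusted p = 0.0128) and 0.22 ± 0.09 at 18 h (adjusted p = 0.113). The difference between the 18 h and the 10 h change was 0.59 (adjusted p = 0.0156). The fall at 10 h lost its call without enzastaurin 10 h replicate 2 or 3 or DMSO 10 h replicate 3 (FADD adjusted p up to 0.0698), whereas the difference between 18 and 10 h kept it with any 1 array left out and lost it with array medians subtracted (0.57, FADD adjusted p = 0.172).

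CASP8, the initiator protease, read lower with enzastaurin at every time without passing the test at any. Probe set 213373_s_at read 666.5, 611.5 and 607.1 with enzastaurin at 4 h, against 763.9, 700.0 and 731.3 with DMSO. At 10 h the values were 640.0, 809.8 and 663.7 with enzastaurin and 901.5, 726.4 and 771.8 with DMSO. At 18 h they were 819.1, 820.5 and 642.7 with enzastaurin and 820.9, 847.5 and 961.6 with DMSO. The arms were apart at 4 h, overlapped at 10 h and at 18 h were separated by less than 1 unit of intensity. The log2 changes were -0.22, -0.18 and -0.21 (SE 0.12 each; limma, adjusted p = 0.472, 0.423 and 0.272). Averaged over the 3 times the change was -0.20 (adjusted p = 0.0429), a contrast in which 18.4% of genes and 3 of 9 members were called. Leaving out single arrays ended that call in 11 of 18 cases, with CASP8 adjusted p up to 0.0980 (limma). These were enzastaurin 4 h replicates 2 and 3, 10 h replicates 1 and 3 and 18 h replicate 3. For DMSO they were 4 h replicates 1 and 3, 10 h replicates 1 and 3 and 18 h replicates 2 and 3. The replicate number as a block also ended it (adjusted p = 0.0970). So did array medians subtracted (-0.16, CASP8 adjusted p = 0.251), no level filter (0.0642) and no variance trend (0.0535). All 3 CASP8 probe sets had negative values at all 3 times and none was called.

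CFLAR, whose c-FLIP proteins hold caspase-8 back, has the most probe sets of the group, 14, of which 7 reached the level for testing. The brightest, 209939_x_at, read 743.8, 636.2 and 625.3 with enzastaurin at 4 h, against 859.8, 687.1 and 731.9 with DMSO. At 10 h it read 517.0, 659.1 and 570.5 with enzastaurin and 652.1, 591.7 and 556.0 with DMSO. At 18 h it read 500.7, 606.4 and 553.8 with enzastaurin and 780.9, 632.8 and 557.7 with DMSO. The arms overlapped throughout. The log2 changes of -0.18, -0.05 and -0.23 were not called (limma, adjusted p = 0.631, 0.898 and 0.276), and the 95% interval at 18 h was -0.51 to 0.04. None of the 7 tested CFLAR probe sets was called at any time, and at 18 h their log2 values lay between -0.26 and 0.18, with 6 below 0. The other 6 tested probe sets of CFLAR correlated with 209939_x_at at 0.16 to 0.42 over the 18 arrays, and all 7 have names ending in _x_at.

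**Figure D3:**
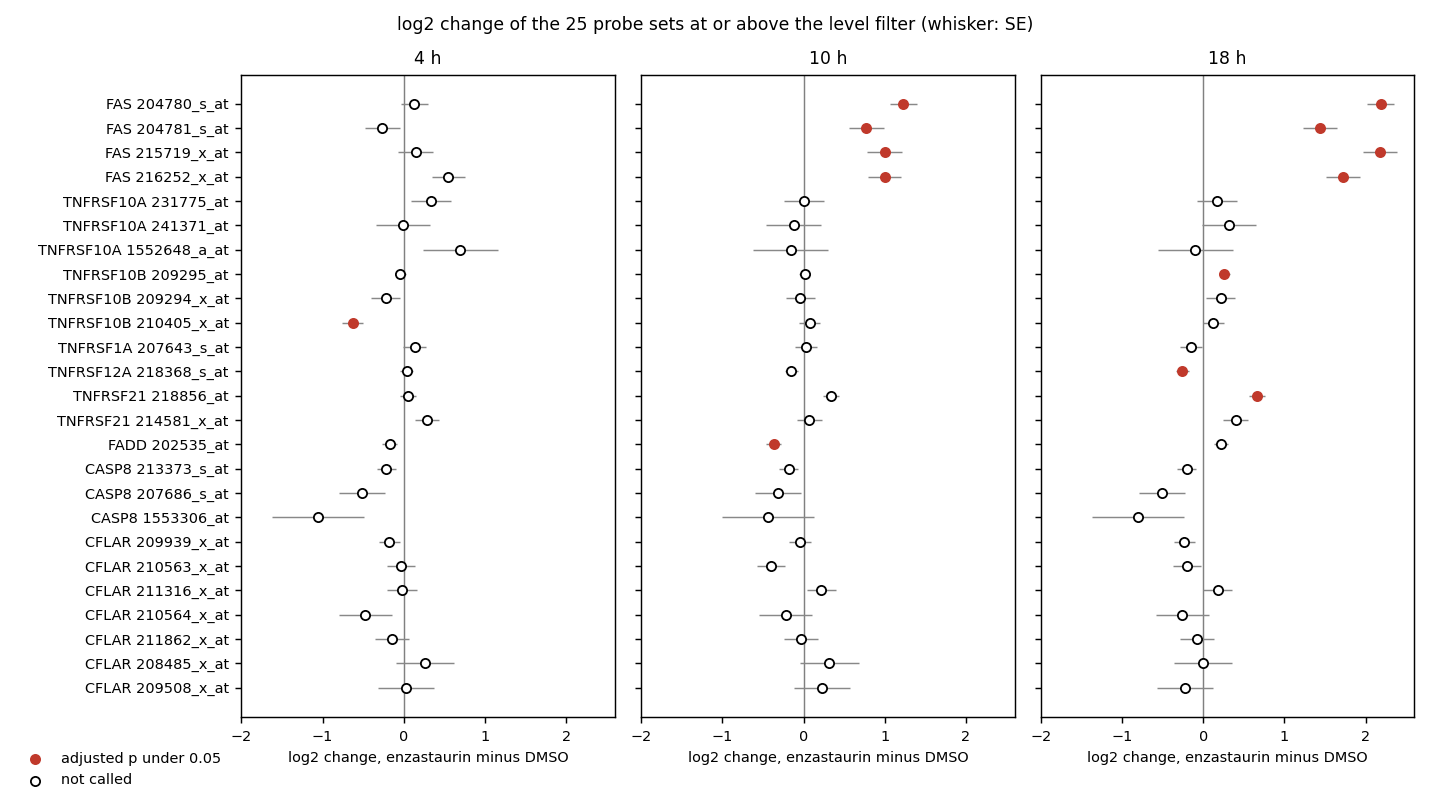
log2 change (horizontal axis, enzastaurin minus DMSO, whiskers SE) of each of the 25 tested probe sets of the members at 4, 10 and 18 h, with filled circles for an adjusted p under 0.05. At 18 h the 4 FAS probe sets lie between 1.44 and 2.19, and the next highest, TNFRSF21 218856_at, lies at 0.66.

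The other genes of the pathway, 47 by a list, were read in the same fit. The list's headings were ligands, further receptors and decoys, adaptors and ubiquitin ligases, brakes, and proteins downstream of caspase-8. They are loose labels. Of the 47 genes, 39 had a probe set and 29 were tested. The test called 1 of 29 at 4 h (higher), 2 at 10 h (1 higher, 1 lower) and 4 at 18 h (1 higher, 3 lower), or 3.45%, 6.90% and 13.8%, beside 1.78%, 8.41% and 15.8% of all genes. The median log2 change of the 29 was -0.08 at 4 h, -0.04 at 10 h and -0.08 at 18 h. Of the ligands only TNFSF15 was bright enough to test and it was not called, and FASLG, TNFSF10 and TNF were below the level, with mean intensities of 101.0 for FASLG, 89.1 for TNFSF10, which encodes TRAIL, and 60.9 for TNF. TNFSF12, the gene of TWEAK, was not analysed here. None of 10 tested adaptors and ubiquitin ligases was called at any time.

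The 1 tested gene of the list called higher was TNFRSF19, a receptor of the same superfamily known to be a target of Wnt signalling. Its intensity averaged 2286 ± 139 with enzastaurin at 18 h and 485 ± 79.0 with DMSO (SD, n = 3 each). The log2 change of TNFRSF19 was 0.79 at 4 h, 1.67 at 10 h and 2.21 at 18 h (limma, adjusted p = 0.00173, 3.70e-08 and 2.28e-10). That is close to the FAS change of 2.19 at 18 h, and unlike FAS it was called at 4 h. The difference between these genes was not tested. The decoy receptor gene TNFRSF11B was too dim over all arrays to be tested (mean 76.7). It lay between 213.9 and 255.9 with enzastaurin at 18 h and between 21.2 and 60.8 with DMSO, and its groups overlapped at 4 and 10 h. Among the other listed genes below the level, TNFSF10 was lower at 10 h (49.1 to 56.6 with enzastaurin, 90.7 to 136.5 with DMSO). TNF was higher at 18 h (54.0 to 70.4 with enzastaurin, 19.8 to 35.5 with DMSO). TNF was dim, and its DMSO arrays alone ran from 18.1 to 136.8 at 4 h. All enzastaurin arrays lay below all DMSO arrays for 15% of all tested genes at 10 h. They lay above for 15.4% at 18 h. The differences of TNFRSF11B, TNFSF10 and TNF were not tested.

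Of 6 tested genes that the list places downstream of caspase-8, 2 were called lower at 18 h, beside 7.82% of all genes. The heading is loose and also holds CASP10, RIPK3 and MLKL, so the count is not one of executioners alone. CASP6, an executioner caspase, averaged 571 ± 52.6 with enzastaurin at 18 h and 835 ± 49.9 with DMSO (SD, n = 3 each), a log2 change of -0.54 (limma, adjusted p = 0.00101), after -0.60 at 10 h (adjusted p = 8.50e-04). BID, which carries the signal of caspase-8 to mitochondria, averaged 1635 ± 99.0 with enzastaurin and 2040 ± 180 with DMSO, a log2 change of -0.32 (adjusted p = 0.0233). The BID call was lost without DMSO 18 h replicate 2 or enzastaurin 18 h replicate 3 (BID adjusted p = 0.124 and 0.0998), and with medians subtracted (0.109), no variance trend (0.0515) or probe sets averaged (-0.16, adjusted p = 0.0719). The other BID probe sets had log2 changes of -0.01 and -0.17 and the other CASP6 probe set -0.44, none called. Among the 8 tested genes listed as brakes the 1 called lower was CYLD, a deubiquitinase of the tumour necrosis factor receptor complex. Brake is the list's label only, and whether CYLD holds death back in these cells was not tested. At 18 h CYLD averaged 112 ± 85.4 with enzastaurin and 383 ± 46.0 with DMSO. Its log2 change of -2.0 (adjusted p = 0.0196) depended on single arrays, and without enzastaurin 18 h replicate 3 it was -1.20 (CYLD adjusted p = 0.135). It also lost its call without DMSO 18 h replicate 1 or 3 (CYLD adjusted p = 0.0502 and 0.0618).

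**Figure D4:**
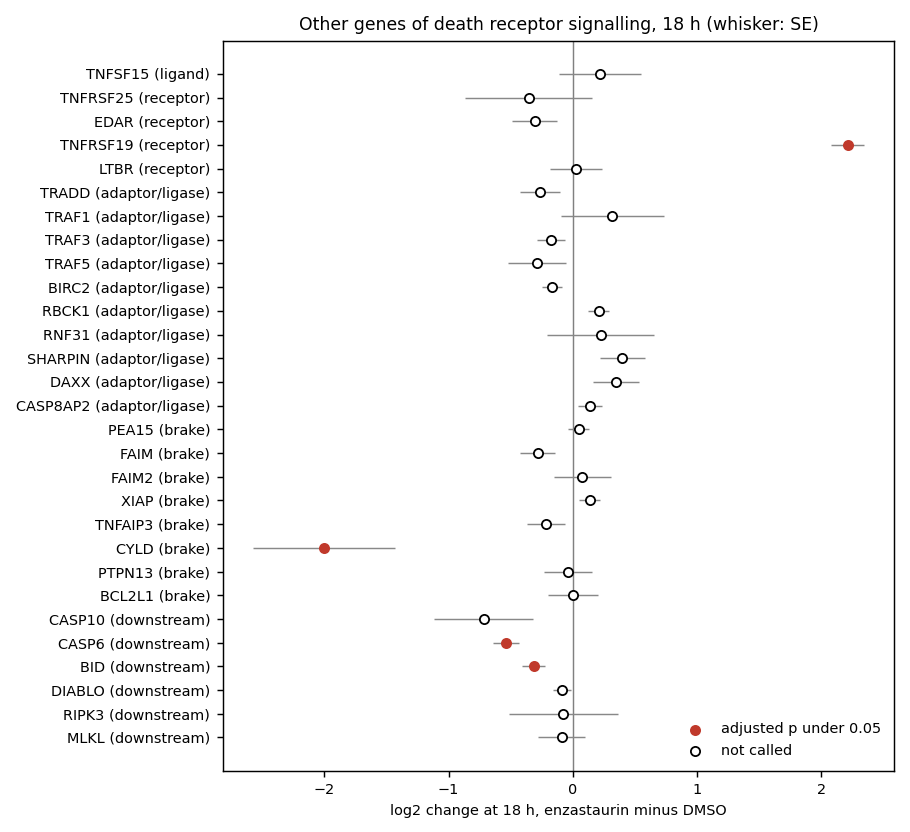
log2 change at 18 h (horizontal axis, enzastaurin minus DMSO, whiskers SE) of the 29 tested pathway genes other than the members. Names on the vertical axis carry the role the list gives, and filled circles mark an adjusted p under 0.05. TNFRSF19 stands at 2.21 and CYLD at -2.0, and the other 2 called genes, CASP6 and BID, lie at -0.54 and -0.32.

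Transcripts of factors whose motifs were searched, or that are known to act on death receptor genes, are given as values. JUN, a subunit of AP-1, had log2 changes of -0.69, -0.32 and -0.62 at 4, 10 and 18 h (limma, adjusted p = 9.03e-04, 0.0731 and 3.13e-04). MYC, which binds E-boxes, had -0.70, -0.75 and -1.04 (adjusted p = 8.43e-04, 1.06e-04 and 6.97e-07), so it was lower at each time. With array medians subtracted, the 4 h calls were lost for JUN (adjusted p = 0.0819) and MYC (adjusted p = 0.0591). ATF4, a stress-response factor, had 0.22, 0.73 and 0.59 (adjusted p = 0.152, 1.04e-06 and 6.81e-06). EGR1 had 0.25, 0.69 and 0.90 (adjusted p = 0.566, 0.00917 and 4.77e-04), and FOXO3 had 0.18, 0.30 and 0.41 (adjusted p = 0.287, 0.0124 and 3.41e-04). With probe sets averaged, FOXO3 had 0.10 at 18 h (adjusted p = 0.692), EGR1 had 0.24 at 10 h (adjusted p = 0.429) and JUN had -0.54 at 10 h (adjusted p = 7.98e-05). The NF-kB genes NFKB1 and RELA, the SP1 gene and DDIT3, known to act on TNFRSF10B, were not called at any time, with DDIT3 at 0.15, 0.14 and 0.23. A transcript's level says nothing here of the activity of its protein.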

How the data were processed

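Total RNA of U251 cells was measured on 18 arrays. The deposited intensity values are linear, with a nearly equal 2% trimmed mean on all arrays, and the software named is GCOS 1.2, per the submitters' processing notes; how low values were treated is not given in the sources used here. From them log2(intensity + 16) was taken with no further scaling, and 1 model with the 6 groups was fitted with limma 3.58.1 (R 4.3.3, trended moderated variance), with Benjamini-Hochberg adjustment over 12392 genes and a threshold of 0.05. The offset shrinks fold changes of dim genes. A second fit held all 27307 probe sets averaging at least 109.0. The fit was tested on simulated data. Probe sets took their gene from the platform annotation: 41091 have 1 gene, 1801 several and 11721 none. With 3 arrays a group, the number of arrays limits precision. Deviations of same-numbered enzastaurin and DMSO arrays of the same time correlated at -0.07 to 0.04 over 9 pairs, so no pairing was seen there. That check cannot exclude pairing, and same-numbered arrays of different times were not compared.

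The members and lists were chosen with earlier results of these data known. Named are all 10 members, other pathway genes called at any time (up to 4 a role), the transcription factor genes, and for members called at 2 or more times the 3 genes with the highest correlation. Some ligands and TNFRSF11B are also named, outside that rule. Marker lists, as summed intensities over arrays, ran from 50565.4 to 69898.9 with enzastaurin and 58581.2 to 72304.7 with DMSO for astroglial genes, 41.2 to 149.8 and 39.5 to 151.9 for epithelial, 102.3 to 367.8 and 82.4 to 268.5 for leukocyte, 311.8 to 442.8 and 320.5 to 436.1 for endothelial, and 707.5 to 941.7 and 677.6 to 1079.5 for neuronal genes. Alternatives covered the offset, scaling, level filter, probe set choice, variance trend, samples in the fit, the replicate block and each array left out. The TNFRSF12A promoter is not shown.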

Additional observations from a re-analysis of the deposited data

Results flagged for a closer look

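In 5 cases the effect of enzastaurin on a member differed between time points by a test of the difference itself (limma, adjusted over 12392 genes). For FAS the log2 change grew by 2.06 between 4 and 18 h, by 1.10 between 4 and 10 h and by 0.96 between 10 and 18 h. For TNFRSF21 it grew by 0.61 between 4 and 18 h. The FADD change was 0.59 higher at 18 h than at 10 h, with all 3 enzastaurin arrays below the DMSO arrays at 10 h and above them at 18 h. With each time taken alone, such a separation was found for 15% of all genes at 10 h and 15.4% at 18 h. With array medians subtracted, only the FAS difference between 4 and 18 h kept its call; the adjusted p was 0.0523 for TNFRSF21, 0.139 and 0.143 for the other FAS differences and 0.172 for FADD. Leaving out single arrays ended the FAS calls between 4 and 10 h in 6 of 18 cases and between 10 and 18 h in 9.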

How the results depend on the processing

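FAS at 10 and 18 h and TNFRSF21 at 18 h kept their calls and directions under all alternatives, with FAS at 18 h between 1.83 and 2.26 on the log2 scale. With array medians subtracted, the members called numbered 1 at 10 h, 2 at 18 h, 1 for the growth of the effect between 4 and 18 h, and 0 between 4 and 10 h and between 10 and 18 h. That scaling moved the median change of all genes at 4 h to 0.12. All calls then numbered 80 (55 higher, 25 lower) at 4 h, 445 at 10 h and 1186 at 18 h, beside 220 (67 higher, 153 lower), 1042 and 1964 as deposited. With that scaling no member was called at 4 h. With probe sets of a gene averaged, the called members numbered 1 for growth between 4 and 18 h and 0 between 4 and 10 h, TNFRSF10B at 18 h turned to -0.13, and all genes called numbered 130 at 4 h and 632 at 10 h. With only the groups compared in the fit, 0 members were called for growth between 4 and 10 h, and 138 genes at 4 h. Without the level filter, or without the variance trend, 1 member was called for growth between 10 and 18 h. Leaving out arrays in turn gave 1 to 3 members called at 10 h, 0 to 1 for growth between 4 and 10 h and 1 to 2 between 10 and 18 h; genes called fell to 140 and 144 at 4 h without enzastaurin replicate 1 or DMSO replicate 3, and to 659 and 693 at 10 h without DMSO replicate 2 or 3. The causes were not tested. Of the smaller calls, TNFRSF21 at 10 h was lost with quantile normalization (limma, adjusted p = 0.0548), medians subtracted (0.0512) or probe sets averaged (0.217). It was also lost without the level filter (0.0572) or the variance trend (0.0689). FADD at 10 h was lost with medians subtracted (0.120) or only the groups compared (0.0513). TNFRSF12A at 18 h was lost without the level filter (0.0543) or the variance trend (0.0605). Medians subtracted (0.0590) or only the groups compared (0.0804) also ended the TNFRSF12A call. The replicate block, fitted although no pairing by number was seen within a time, gave 4 members called at 18 h and 3 at 10 h. Of the member calls it changed only the CASP8 average (limma, adjusted p = 0.0970). Dim probe sets limit what can be seen: TNFRSF10D and 11 of the 36 probe sets lay below the level for testing.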
